A study of Mus musculus with 4 samples.

Results

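Nr2f1, Nr2f2, Prox1, Sp8 and Htr3a were followed in single cells of the mouse medial ganglionic eminence (MGE), the ventral forebrain zone that makes Lhx6- and Nkx2-1-dependent GABAergic neurons. These 5 genes of the 32285 in the matrices were chosen by symbol because they are widely used to mark the neighbouring caudal ganglionic eminence (CGE). Their levels were read in progenitors and neuron clusters, and in cells with and without Lhx6 or Nkx2-1. All 5 were counted in every library. Nr2f1, Nr2f2, Prox1 and Sp8 encode transcription factors. Htr3a does not: it encodes a subunit of the serotonin-gated ion channel.

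The CGE and the MGE are continuous zones of the embryonic ventral forebrain. Nkx2-1 specifies the MGE, and its target Lhx6 is kept on in many of the neurons that leave it. The orphan nuclear receptors Nr2f1 and Nr2f2 are graded across these zones and are high caudally. Prox1 is a homeodomain factor of CGE-derived cortical interneurons that is also present in the subventricular zone of the other eminences. Sp8, a zinc finger factor, is best known from the dorsal lateral ganglionic eminence (LGE) and the CGE, and Htr3a labels most CGE-derived interneurons of the mature cortex.

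Droplet single-cell RNA sequencing (10x Genomics) was done on MGE microdissected at E14.5, a stage of embryonic neurogenesis. Embryos came from St18 heterozygous parents of mixed C57/BL6 and ICR strain, and the tissue was pooled by genotype before it was dissociated. There were 2 libraries of whole-animal St18(-/-) embryos, called null here, and 2 of wild-type (WT) littermates, with no other allele or agent in the labels. How many embryos of which sex went into a pool was not stated, so p-values measure the spread between these libraries, which may be technical.

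The libraries held 70991150 to 92984713 unique molecular identifiers (UMIs, counts of captured molecules), and 18267 cells with at least 3000 UMIs and at most 10% mitochondrial UMIs were kept. Of these, 10177 fell in neuron-like clusters, where markers such as Dcx and Gad2 together scored above progenitor markers, and 7798 in progenitor-like clusters. The 152 erythroid-like, 107 microglia-like and 33 oligodendrocyte precursor-like cells were left out. St18 went against the label in one library: in neurons it stood at 25.1 CPM (UMIs of a gene per 1000000 UMIs of the class in that library) in null replicate 1 and 77.5 CPM in null replicate 2, with WT replicate 1 at 43.7 CPM and WT replicate 2 at 58.7 CPM. These counts cover the whole gene and may include UMIs from outside the deleted part. Xist was at 599 and 1480 CPM in the null neurons and at 0.212 and 0.0778 CPM in the WT neurons. The summed Y-linked genes stood at 114 CPM (null replicate 1), 62.3 CPM (null replicate 2), 181 CPM (WT replicate 1) and 171 CPM (WT replicate 2). The null libraries thus held UMIs of both Xist and Y-linked genes, and the sex makeup of the pools moved with genotype. In sums over whole libraries the effects of genotype and sex cannot be told apart. A split of the cells by sex was not tested. Pairs of libraries shared 4 to 11 cell barcodes. Of the neurons, 69.9% to 76.2% had a UMI of Lhx6 or Nkx2-1 when each cell was thinned at random to 3000 UMIs.

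Nr2f1 (ENSMUSG00000069171) lies on the minus strand at chr13:78188973-78199757 of GRCm38, and Nr2f2 (ENSMUSG00000030551) on the minus strand at chr7:70351944-70366735. Prox1 (ENSMUSG00000010175) is at chr1:190118035-190170714 on the minus strand. Sp8 (ENSMUSG00000048562) is at chr12:118846329-118852576 on the plus strand, and Htr3a (ENSMUSG00000032269) at chr9:48899213-48911099 on the minus strand. An annotated non-coding gene overlaps each of them on the opposite strand except Sp8. These are A830082K12Rik at Nr2f1, B130024G19Rik at Nr2f2, Prox1os and Gm28172 at Prox1, and Gm32335 at Htr3a. Whether strand was used in the counting is not given in the sources used here, so reads of a gene and of its antisense partner may not be fully separated.

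Nr2f1 was detected in both classes of cell. Every list of 4 values here gives null replicate 1, null replicate 2, WT replicate 1 and WT replicate 2 in that order. In neurons Nr2f1 stood at 195, 219, 155 and 147 CPM, and in progenitors at 198, 209.5, 151 and 128 CPM. Both null libraries were above both WT libraries in each class, as for 42.9% of all genes tested in neurons and 48.3% in progenitors. The difference between neurons and progenitors was 0.01 on the log2 scale (SE 0.04, adjusted p = 0.898), where 80.2% of the 13776 genes tested passed an adjusted p of 0.05.

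Nr2f2, the paralog of Nr2f1, was at 86.5, 107, 43.2 and 77.0 CPM in neurons. In progenitors it was at 64.8, 73.7, 43.2 and 40.5 CPM. The null libraries were again the higher pair in both classes, but the WT neurons differed from each other by more than WT replicate 2 did from null replicate 1. Nr2f2 was higher in neurons than in progenitors by 0.42 (log2, SE 0.09, adjusted p = 0.000603), with a near tie in WT replicate 1. This difference missed the threshold by DESeq2 (0.39, adjusted p = 0.0538) and without the library as a block (0.44, adjusted p = 0.0929).

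Prox1 went the other way between the classes. It was at 70.0, 100.2, 54.0 and 59.0 CPM in neurons and at 85.3, 117, 71.5 and 81.3 CPM in progenitors, so the progenitor value was the higher one in every library. The difference was -0.39 (log2, SE 0.05, adjusted p = 4.98e-06). Null replicate 2 had the highest value in each class.

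Sp8 and Htr3a were sparse. Sp8 was at 10.1, 9.21, 6.30 and 5.60 CPM in neurons, from 216, 178, 89 and 72 UMIs, and at 2.82, 2.04, 1.88 and 1.65 CPM in progenitors. Htr3a was at 9.29, 6.41, 5.38 and 7.24 CPM in neurons, from 199, 124, 76 and 93 UMIs, and at 3.32, 1.54, 1.70 and 2.62 CPM in progenitors. Every library had more of both in neurons: Sp8 by 1.85 (log2, SE 0.13, adjusted p = 3.68e-09) and Htr3a by 1.57 (SE 0.14, adjusted p = 4.66e-08). For Htr3a the null and WT values overlapped in both classes.

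**Figure D1:**
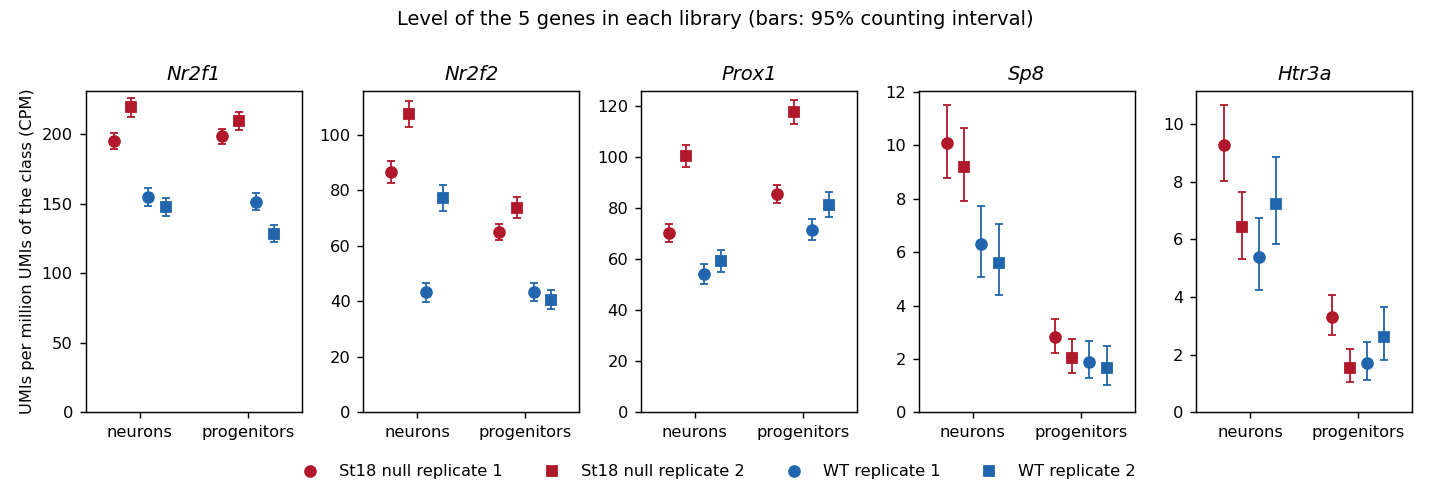
CPM of each gene (vertical axis, from 0) in neurons and progenitors of each library. Points are single libraries (red null, blue WT; circles replicate 1, squares replicate 2) and bars are exact 95% Poisson intervals, which cover counting error only; Sp8 and Htr3a lie higher in neurons than in progenitors in all 4 libraries, and Prox1 lower.

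Droplets also hold free RNA, so the share of cells with a UMI was set beside that of cells that should lack these genes. Thinned to 3000 UMIs per cell, 24.7% ± 4.01 (SD, n = 4 libraries) of neurons had a Nr2f1 UMI, 11.7% ± 1.86 a Nr2f2 UMI and 15.4% ± 3.17 a Prox1 UMI. In progenitors the shares were 26.7% ± 4.05 for Nr2f1, 11.8% ± 3.25 for Nr2f2 and 20.4% ± 3.06 for Prox1. In the 259 erythroid and microglia cells together they were 5.02%, 5.02% and 4.63%, with exact Clopper-Pearson intervals of 2.70% to 8.43% for both receptors and 2.42% to 7.95% for Prox1. The median depth before thinning was 5995 UMIs in neurons, 9003.5 in progenitors and 10858 in these other cells. The shares of all 3 genes in both classes were above those intervals, except that the lowest progenitor library for Nr2f2, with 8.16%, was inside. The other cells were not alike: as levels, the microglia had 61.9 CPM of Nr2f1, 64.8 CPM of Nr2f2 and 34.2 CPM of Prox1, and the erythroid cells 6.78, 5.65 and 2.26 CPM. Nr2f2 in progenitors, at 64.8, 73.7, 43.2 and 40.5 CPM, did not exceed the exact Poisson interval of the microglia, 52.0 to 79.8 CPM, and neither did Nr2f2 in neurons of the WT libraries, at 43.2 and 77.0 CPM. All of these were above the interval of the erythroid cells, 2.71 to 10.4 CPM.

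For Sp8 the share was 2.21% ± 0.728 in neurons and 0.770% ± 0.219 in progenitors. For Htr3a it was 1.90% ± 0.677 and 0.636% ± 0.320. The erythroid and microglia cells had 0 of 259 cells with a UMI of either gene at this depth, which allows a share of up to 1.16%. The exact Clopper-Pearson upper bound is 1.41%. The mean neuron shares of both genes are above these limits, but Sp8 in WT replicate 2, with 1.35%, and Htr3a in null replicate 2 and WT replicate 1, with 1.33% and 1.39%, are under the exact bound. The progenitor shares are under both limits and could not be told from background at this depth. Droplets with under 100 UMIs, which hold mostly free RNA, had 109 to 149 CPM of Nr2f1, 41.6 to 68.2 CPM of Nr2f2 and 33.1 to 51.3 CPM of Prox1, and 3.67 to 9.86 CPM of Sp8 and 1.05 to 4.44 CPM of Htr3a.

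Within neurons, each gene had its own set of clusters. Clustering was done with the 5 genes left out of the variable genes, and the levels by cluster are a description with no test. Over the 16 neuron clusters with at least 20 cells in every library, mean Nr2f1 ran from 11.3 CPM ± 3.10 (SD, n = 4) in cluster 8 to 772 CPM ± 156 in cluster 17. Second was cluster 12 with 706 CPM ± 49.7, and both were LGE neuron-like. Six3 and Meis2 were among the leading genes of cluster 17 and Foxp2 among those of cluster 12. Npas1, a gene also used to mark the CGE, was another leading gene of cluster 17. The ranges of clusters 17 and 12 over libraries overlapped, at 628 to 981 CPM and 657 to 754 CPM. Next was cluster 6 with 516 CPM ± 132, which was outside the range of cluster 12.

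Neuron cluster 6 is the cluster in which most of these genes were found together. It held 540 cells, 5.31% of the neurons, and its 10 leading genes were Lgi1, Htr3a, C230057M02Rik, Nfix, Nr2f2, Klhl32, Nfib, Nfia, Olfm2 and Adamts5. Htr3a there was at 75.6, 43.3, 42.4 and 73.7 CPM, and no library of another of the 16 clusters reached the lowest of these. This cluster gave 49.2% of all Htr3a UMIs of neurons. It gave 27.2% of the Nr2f2 UMIs, at 350.2, 472, 187 and 309 CPM, and 18.2% of the Nr2f1 UMIs. Prox1 was at 185, 255, 168 and 189 CPM in it, 17.4% of the Prox1 UMIs of neurons. Sp8 was at 5.32 CPM ± 5.74, in the middle of its range.

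The same cluster was also strongly MGE-marked. Lhx6 was at 563 CPM and Nkx2-1 at 437 CPM there as means of the 4 libraries, and 469 of its 540 cells were positive for one of them at 3000 UMIs. St18 stood at 166 CPM, beside 165 CPM in cluster 0 and 76.7 CPM in cluster 4, the next in its order. The cluster took 5.26%, 6.67%, 3.76% and 5.74% of the neurons of the 4 libraries, with null and WT overlapping. It was left without a cell type name, since fewer than 3 markers of any of the fixed lists stood out in it.

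Nr2f2 was highest in neuron cluster 15, with 763, 948, 161 and 724 CPM. WT replicate 1 lay far under the other libraries there, so the mean of 649 CPM ± 339.5 is uncertain. This cluster, led by Scg2, B130024G19Rik, Cpne2 and Nr2f2, held 2.05% of the neurons and 20.6% of the Nr2f2 UMIs, and 71 of its 209 cells were Lhx6 or Nkx2-1 positive. Cluster 6 came second and cluster 17 next with 212 CPM ± 39.7, and cluster 4, led by Shh and Lhx8, was lowest with 4.75 CPM ± 1.03. The pallial neuron-like cluster 19, with 68 cells too few to compare libraries, had 376 CPM over all its cells.

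Prox1 was highest in neuron cluster 0, with 200.2, 328, 199 and 201 CPM, and then in cluster 6. The ranges of these clusters overlapped, and the fall to the next, cluster 4 with 73.8 CPM ± 30.6, was beyond the ranges. Cluster 0 was led by Prox1 itself, Col5a2, St18, Ccnd2 and Dach1, and held 12.8% of the neurons and 37.3% of their Prox1 UMIs. Of its 1299 cells, 1199 were Lhx6 or Nkx2-1 positive. Prox1 was lowest in the LGE neuron-like cluster 12, with 5.94 CPM ± 3.76, where Nr2f1 was near its highest.

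Sp8 was spread thinly over several neuron clusters. Cluster 15 had 15.3 CPM ± 18.1 from 27 UMIs, of which WT replicate 2 gave 41.4 CPM and WT replicate 1 none. The MGE cortical interneuron-like cluster 1 had 15.2 CPM ± 5.82 and gave 31.2% of the Sp8 UMIs of neurons. Cluster 2, led by Npy, S100a10 and Rwdd3, had 14.48 CPM ± 4.56. No pair of neighbours in this order had ranges apart, so the order of the clusters by Sp8 is not resolved at this depth. Cluster 9 was last, with 1 UMI in 346 cells.

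Outside cluster 6, Htr3a was low. Cluster 0 had 16.5, 12.5, 5.28 and 6.62 CPM, and cluster 1 had 5.03, 4.61, 9.55 and 9.21 CPM. The clusters 8, 12, 14 and 17 had 0 UMIs, among them both LGE neuron-like clusters with the most Nr2f1. High Nr2f1 and Htr3a were therefore found together in cluster 6 and not in clusters 12 and 17.

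Levels varied less among the 14 progenitor clusters for the receptors than for Prox1. Nr2f1 was highest in progenitor cluster 9, with 379, 279, 183 and 351 CPM, then in clusters 6 and 2 with 219 CPM ± 31.5 and 209.9 CPM ± 47.9, and lowest in cluster 14 with 63.9 CPM ± 12.7. Cluster 9 was led by glial and radial glial genes, among them Bcan, Apoe, Sparcl1 and Fabp7. It also had the most Nr2f2, with 158, 135, 68.2 and 151 CPM, outside the range of the next, cluster 12 with 55.6 CPM ± 5.08. Cluster 1, led by histone genes of S phase, came after it with 51.9 CPM ± 8.79, and cluster 3 last with 30.9 CPM ± 11.3. The small cluster 13, led by Dio3 and Hhip and with too few cells in a library to compare, had 849 CPM of Nr2f1 and 291 CPM of Nr2f2 over its 207 cells, and gave 16.7% and 17.6% of the progenitors' UMIs of these genes.

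Prox1 ran from 4.69 CPM ± 0.921 in progenitor cluster 2 to 202 CPM ± 83.8 in cluster 7. The highest clusters, 7, 4 and 14, overlapped: cluster 4 had 185 CPM ± 45.9 and cluster 14 had 180.3 CPM ± 44.0. Cluster 7 was led by Sel1l3, Cdc6 and St18, and cluster 4 by Ripor2, Hist1h2bc and Maf. Mir124a-1hg and Myt1l, the latter a factor of neuronal fate, were also among the leading genes of cluster 4. Of the MGE cortical interneuron list, 3 markers stood out in cluster 4, 2 in cluster 14 and 1 in cluster 7. The part of differentiating cells in the progenitor level of Prox1 was not tested. The low clusters 2 and 6 were led by genes such as Sparc and Ccn1, with Hes5, a Notch target of undifferentiated progenitors, in cluster 6. Nr2f1 was highest after cluster 9 in those same clusters.

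In progenitors both genes were sparse. Sp8 was highest in cluster 0 with 9.78, 4.67, 5.60 and 5.73 CPM, then in clusters 4 and 14 with 5.72 CPM ± 2.92 and 4.57 CPM ± 3.78, and lowest in cluster 9 with 1 UMI. Htr3a was highest in cluster 14, with 21.2 CPM in null replicate 1, 6.22 CPM in WT replicate 2 and 0 UMIs in the others, and lowest in cluster 2 with 3 UMIs. Clusters 4 and 0 had 4.93 CPM ± 1.68 and 4.76 CPM ± 0.857 of Htr3a. Of the MGE cortical interneuron list, 4 markers stood out in cluster 0. No neighbours in either order had ranges apart, but clusters further apart did: the range of cluster 0 lay above those of 9 other clusters for Sp8 and of 5 for Htr3a.

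**Figure D2:**
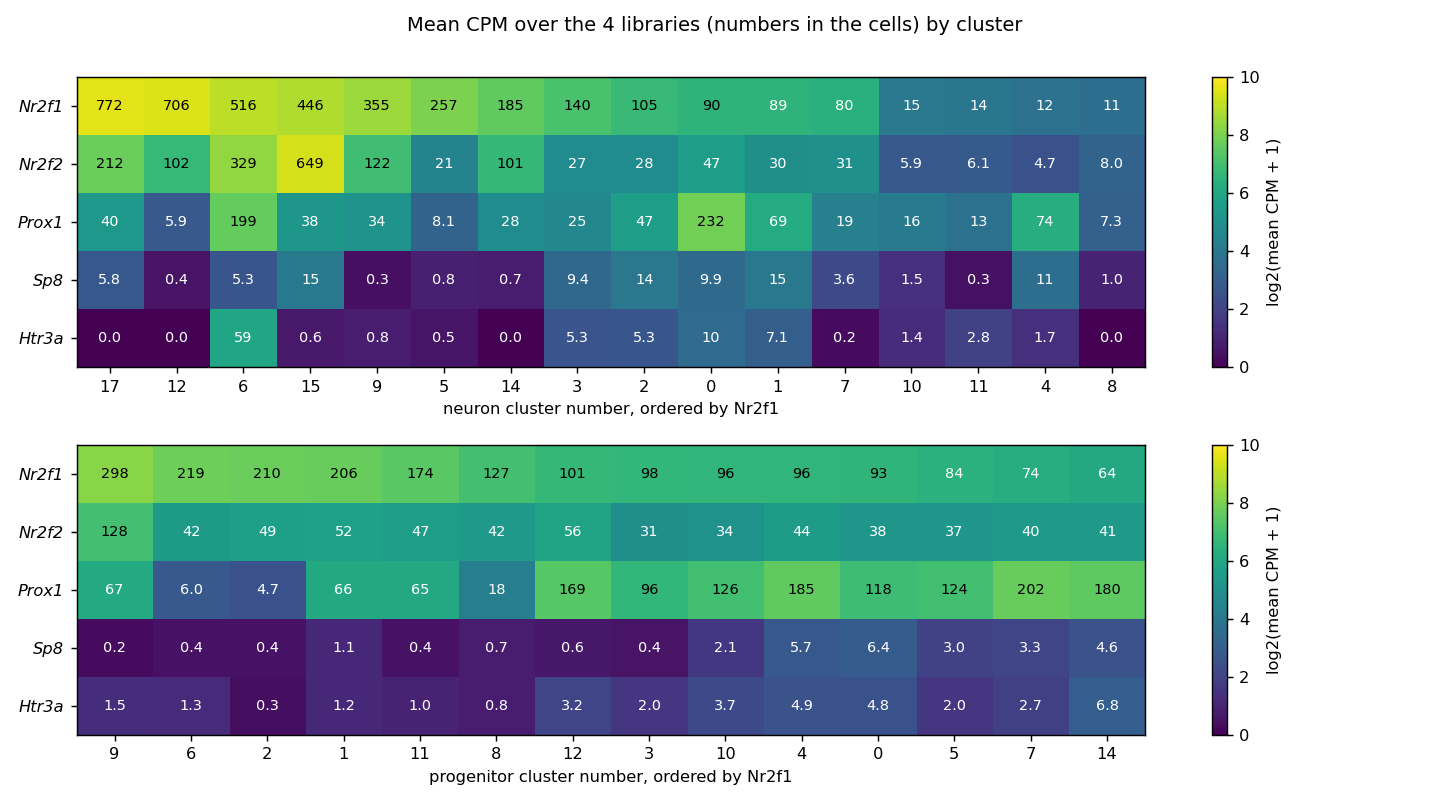
Mean CPM of each gene (rows; printed in each field) over the 4 libraries in the 16 neuron and 14 progenitor clusters (columns) that had at least 20 cells in every library, coloured by log2(mean CPM + 1) and ordered by Nr2f1. Htr3a has 58.7 CPM in neuron cluster 6 and 10.2 CPM in the next, cluster 0, and cluster 6 is also high for Nr2f1, Nr2f2 and Prox1.

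Across these 30 clusters the receptors followed each other. Pearson's r of log2(CPM + 1), a description across clusters that share libraries and with no p, was 0.88 for Nr2f1 with Nr2f2. Of 10985 genes compared, the most like Nr2f1 were A830082K12Rik (0.96), Nr2f2 (0.88) and Id4 (0.76). The most like Nr2f2 were Nr2f1 (0.88), B130024G19Rik (0.82) and A830082K12Rik (0.81). The first of each list other than the paralog is the antisense neighbour, for which shared reads were not tested.

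Prox1 was most like Prox1os (0.88), Stk32c (0.87) and Sp9 (0.86), and its r with St18 was 0.81. Htr3a was most like C230057M02Rik (0.88), Vav2 (0.83) and Etv1 (0.79), with 0.77 for St18 and 0.66 for Prox1. Sp8 was most like Kcns2 (0.80), Tmem176b (0.79) and Epb41l4a (0.78). Against Lhx6, r was -0.62 for Nr2f1 and -0.38 for Nr2f2, and 0.46 for Prox1, 0.47 for Sp8 and 0.53 for Htr3a.

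Detection in the same cell was counted as well. After thinning, 721 neurons had a UMI of both Nr2f1 and Nr2f2, 2.39 times the 302 expected if the genes were independent within each library, with 2.08 to 2.80 times in single libraries. Prox1 and Htr3a were together in 84 neurons, 2.77 times the expected 30.3, and 2.27 to 3.88 times in single libraries. Nr2f2 and Prox1 were together in 265 neurons, 1.43 times the expected number. Htr3a was found with Nr2f1 in 81 neurons, 1.60 times the expected number, and with Nr2f2 in 42, 1.74 times, with r across clusters of -0.07 and 0.06. Sp8 and Htr3a were together in 4 neurons against 4.69 expected, with an r of 0.48. Nr2f1 and Sp8 were together in 32 neurons, 0.536 times the expected 59.7. In progenitors Nr2f1 and Nr2f2 were again together at 2.08 times the number under independence, and Nr2f1 and Prox1 0.919 times. These ratios pool clusters of different makeup and carry no test.

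The question of the CGE-marking genes in MGE cells was then put directly by splitting each class by Lhx6 and Nkx2-1. Cells with a UMI of either gene at 3000 UMIs are called positive and the rest negative. The negative cells are not free of them: 31.0% of the negative neurons had an Lhx6 UMI and 19.6% a Nkx2-1 UMI when all UMIs were counted, and of the negative progenitors 21.2% had an Lhx6 UMI and 55.9% a Nkx2-1 UMI. Most negative progenitors thus carried Nkx2-1 UMIs at full depth, and their split is one of level. After thinning, 7.72% and 10.0% of the erythroid and microglia cells had one of Lhx6 and of Nkx2-1. Positive neurons numbered 7396 and negative neurons 2781.

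Nr2f1 was lower in positive neurons in every library, at 140.5, 172, 96.8 and 100.1 CPM against 326, 359, 286 and 272 CPM in negative neurons. The groups did not overlap, and the difference was -1.29 (log2, SE 0.06, adjusted p = 3.26e-11, edgeR quasi-likelihood, library as a block). Nr2f2 was at 66.6, 90.8, 30.7 and 50.9 CPM in positive and 134, 156, 71.2 and 146 CPM in negative neurons. It was lower in positive cells by 1.07 (log2 change of -1.07, SE 0.08, adjusted p = 2.22e-08). Both receptors were still counted in positive neurons. After thinning, 19.8% of these had a Nr2f1 UMI and 9.45% a Nr2f2 UMI, beside 5.02% of erythroid and microglia cells. By library the Nr2f2 share was 10.2%, 11.6%, 7.31% and 8.49%. WT replicate 1 was inside the interval of the erythroid and microglia cells, 2.70% to 8.43%, and WT replicate 2 just above it. As levels, Nr2f1 in positive neurons was under that of the droplets with under 100 UMIs in 3 libraries (149, 139, 109 and 109.7 CPM in those droplets), and above it in null replicate 2. For Nr2f2 these droplets had 58.7, 59.7, 41.6 and 68.2 CPM, so the positive neurons were under them in both WT libraries and above in both null libraries. For both receptors some cells were far below these droplets, so the droplet level does not show how much free RNA a cell holds. Nr2f1 was at 6.78 CPM in the erythroid cells and 11.3 CPM ± 3.10 in neuron cluster 8. Nr2f2 was at 5.65 CPM in the erythroid cells and 4.75 CPM in the neuron cluster with the least of it. The positive WT neurons were above these low levels for each receptor. They were above the 61.9 CPM of the microglia for Nr2f1 and under the 64.8 CPM of the microglia for Nr2f2. The part of free RNA in these levels was not tested.

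Prox1 and Htr3a were higher in positive neurons. Prox1 was at 83.8, 119, 67.2 and 70.1 CPM in positive and at 36.8, 43.8, 24.4 and 29.7 CPM in negative neurons, a difference of 1.34 (log2, SE 0.06, adjusted p = 8.19e-11). Htr3a was at 11.04, 7.41, 6.95 and 7.61 CPM in positive and 5.08, 3.48, 1.84 and 6.23 CPM in negative neurons, a difference of 1.04 (log2, SE 0.20, adjusted p = 0.000596). The values of Prox1 were apart, and those of Htr3a were higher in the positive cells of all 4 libraries. Sp8 was higher in positive neurons in 3 libraries and lower in WT replicate 2, with 11.04, 10.2, 7.36 and 4.08 CPM against 7.78, 6.35, 3.91 and 9.63 CPM, and its difference of 0.31 (SE 0.23) did not pass (adjusted p = 0.337). Without WT replicate 2 it was 0.65 (SE 0.17) and passed (adjusted p = 0.00428). So 4 of the 5 genes passed in neurons, where 33.6% of 12305 genes did.

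Progenitors gave the same directions for all 5 genes. Nr2f1 was at 152, 168, 120.2 and 115 CPM in positive and 318, 327, 222 and 169 CPM in negative progenitors (log2 change of -0.88, SE 0.05, adjusted p = 3.38e-16). Nr2f2 was at 51.4, 64.2, 32.5 and 38.6 CPM against 99.2, 100.4, 67.3 and 46.4 CPM (log2 change of -0.76, SE 0.07, adjusted p = 7.25e-11). Both were lower in the positive cells of each library, with the smallest gap in WT replicate 2. Droplets with under 100 UMIs had 58.7, 59.7, 41.6 and 68.2 CPM of Nr2f2, above the positive progenitors except in null replicate 2. None of the positive progenitor values of Nr2f2 exceeded the microglia interval of 52.0 to 79.8 CPM. All of them were above the 5.65 CPM of the erythroid cells. They were also above the 4.75 CPM of the neuron cluster with the least Nr2f2. The thinned WT shares of Nr2f2 in positive progenitors, 8.20% and 7.83%, were inside the interval of the erythroid and microglia cells, 2.70% to 8.43%. How much of the progenitor level was free RNA was not tested. Prox1 was at 105, 141, 87.7 and 95.5 CPM against 34.0, 49.6, 34.6 and 37.2 CPM, a difference of 1.49 (log2, SE 0.06, adjusted p = 1.49e-20).

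Htr3a in progenitors differed by 0.93 (log2, SE 0.28, adjusted p = 0.00726) and Sp8 by 0.88 (SE 0.29, adjusted p = 0.0127). Htr3a was at 3.97, 1.82, 1.75 and 2.87 CPM in positive against 1.65, 0.759, 1.59 and 1.84 CPM in negative progenitors, higher in each library but with a near tie in WT replicate 1. Sp8 was at 3.17, 2.15, 2.36 and 1.98 CPM against 1.90, 1.71, 0.795 and 0.614 CPM. All 5 passed in progenitors, where 46.6% of 12444 genes did. The negative progenitors held only 13, 4, 8 and 6 UMIs of Htr3a and 15, 9, 4 and 2 UMIs of Sp8. The progenitor shares of these genes could not be told from background after thinning, as given above. Both of the sparse genes missed the threshold without the library block (adjusted p = 0.135 for Htr3a and 0.0806 for Sp8) and by DESeq2 (0.157 and 0.125). Htr3a also missed it without null replicate 1 (0.202) and Sp8 without WT replicate 1 (0.0699).

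**Figure D3:**
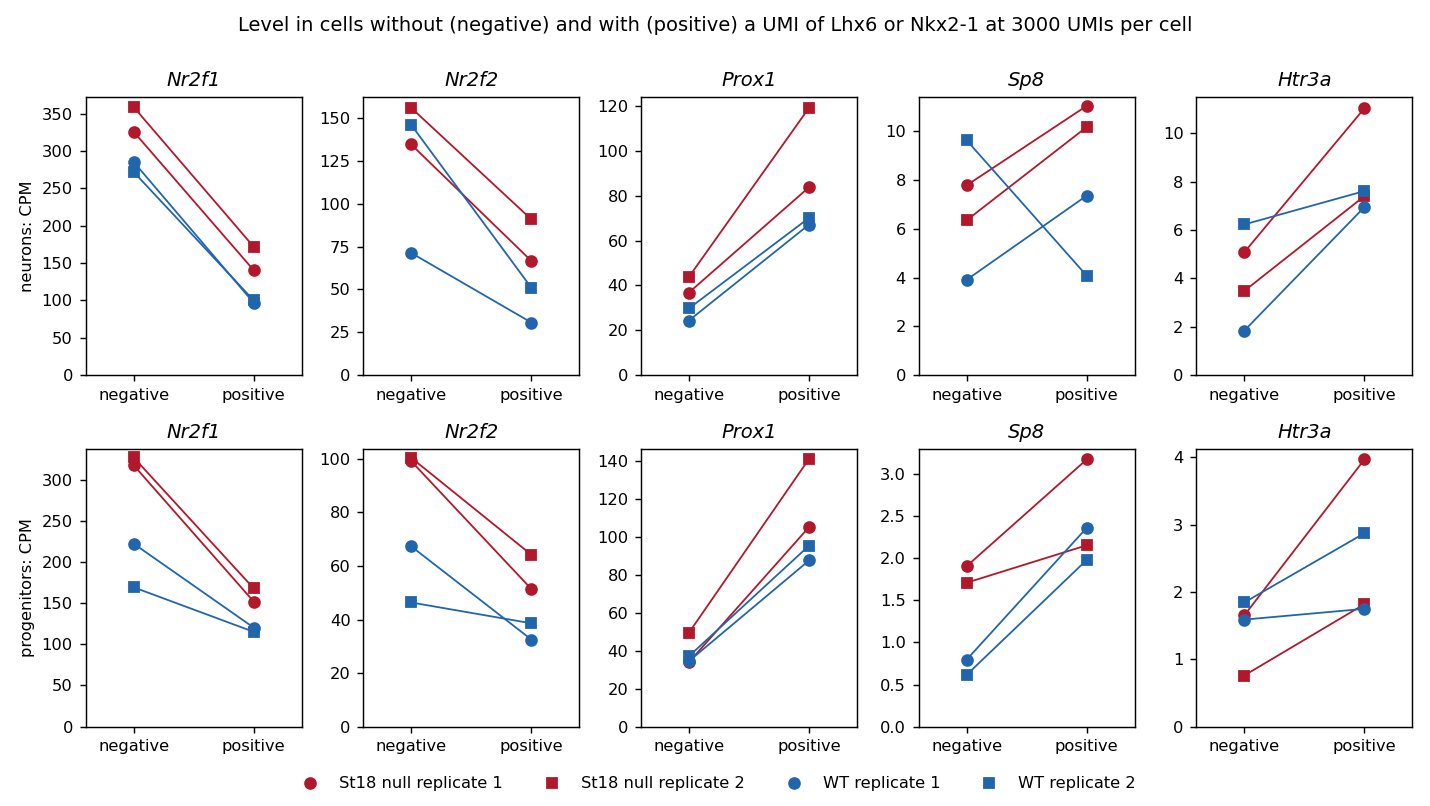
CPM of each gene (vertical axes, from 0) in cells without (negative) and with (positive) a UMI of Lhx6 or Nkx2-1 at 3000 UMIs, for neurons (upper row) and progenitors (lower row). Lines join the values of one library (red null, blue WT); Nr2f1 and Nr2f2 fall and Prox1 rises from negative to positive cells in all 4 libraries in both classes, while Sp8 in neurons falls in WT replicate 2.

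Much of this contrast ran between clusters. When equal numbers of positive and negative cells were drawn from each cluster in each library, a setting chosen after the data were seen, the Nr2f1 difference in neurons was -0.43 (log2, SE 0.05, adjusted p = 1.90e-07) and that of Nr2f2 -0.64 (SE 0.07, adjusted p = 1.16e-08), where 0.699% of 10441 genes passed. Prox1 was at 0.33 (SE 0.09, adjusted p = 0.0651), and Htr3a and Sp8 changed sign to -0.41 (SE 0.28) and -0.49 (SE 0.23), with adjusted p of 0.775 and 0.548. In progenitors the matched differences were -0.27 for Nr2f1, -0.32 for Nr2f2 and 0.49 for Prox1, and all passed (adjusted p = 5.74e-05, 0.0234 and 8.76e-06), where 1.04% of 11204 genes did. Htr3a and Sp8 had too few UMIs in the matched progenitors to be tested. Over single neuron clusters, Nr2f1 was higher in the positive cells in 2 of 16, Nr2f2 in 6 of 16 and Prox1 in 12 of 16. Sp8 was higher in 7 of 16 and Htr3a in 6 of 16. The clusters without any Htr3a UMI, named above, could not count as higher for it. In cluster 6, which held the most Htr3a, its level over all libraries was 54.9 CPM in the positive and 86.7 CPM in the negative cells, from 200 and 42 UMIs.

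**Figure D4:**
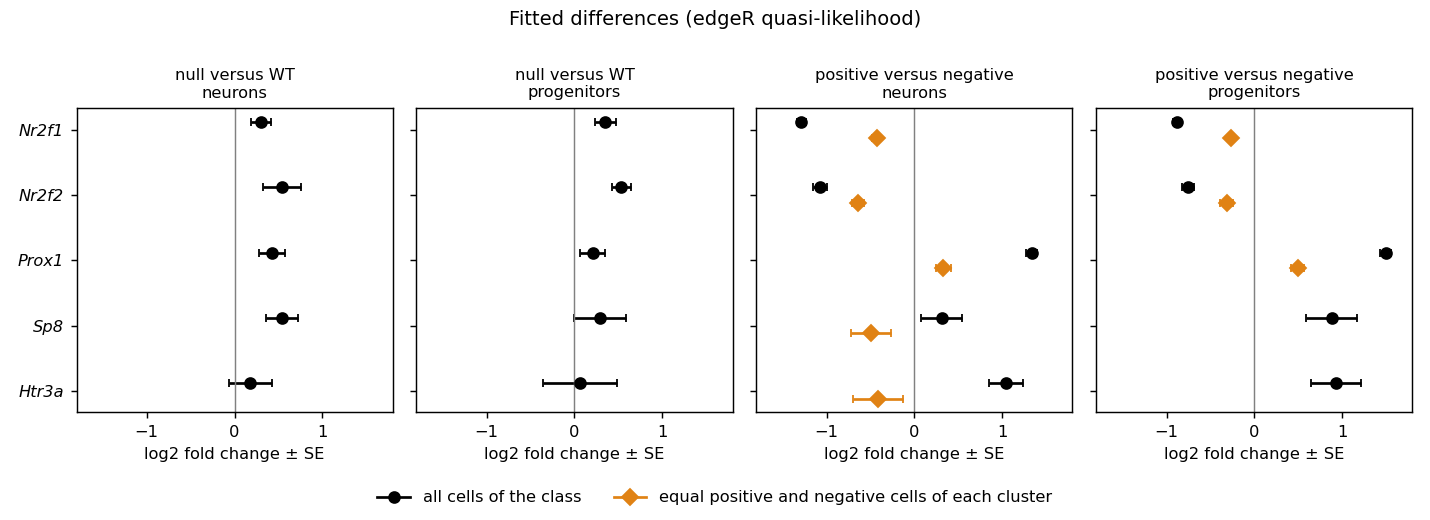
Fitted log2 fold changes ± SE (horizontal axes) of the 5 genes for null versus WT and for positive versus negative cells. Black circles use all cells of the class and orange diamonds equal numbers of positive and negative cells of each cluster; matching brings the positive versus negative differences of Nr2f1, Nr2f2 and Prox1 nearer to 0 and puts Sp8 and Htr3a in neurons below it, to -0.49 and -0.41, and these had no matched value in progenitors.

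Other genes often used for these zones were counted in the same split, where 33.6% of all genes tested passed in neurons and 46.6% in progenitors. Of 12 further CGE-associated genes, 8 were tested in neurons: Adarb2, Calb2 and Npas3 were higher in positive cells, and Npas1, Cxcl14, Cnr1, Reln and Pax6 lower, with a median of -0.83 against 0.01 for all genes. Adarb2, an RNA-editing family gene, rose by 0.52 (log2, SE 0.05) and Cnr1, the cannabinoid receptor, changed by -1.77 (SE 0.11). The CGE-associated genes beside the 5 were thus also of mixed direction. Of 13 MGE-associated genes without the splitting pair, 11 were higher and only Mef2c was lower. Of 10 tested LGE-associated genes 9 were lower, by 3.83 for Ebf1 (log2 change of -3.83), and all 4 tested pallial genes were lower. Of 8 Dlx and GABA genes, 6 were higher, Dlx6 lower, and Gad2 did not pass.

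In progenitors 6 CGE-associated genes were tested, of which Adarb2 was higher and Npas3, Pax6 and Egfr were lower. The MGE-associated genes were higher in 11 of 13 cases, with Cxcr4 lower, and 4 of 9 LGE-associated genes were lower, a share near that of all genes. All 8 Dlx and GABA genes were higher. No pallial gene had enough UMIs to be tested.

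Relatives of the 5 genes were read from the same fits. Sp9, the close paralog of Sp8, was higher in positive neurons by 0.91 (log2, SE 0.04, adjusted p = 1.31e-10) and in positive progenitors by 1.51 (SE 0.05, adjusted p = 5.30e-24). Nr2f6, the remaining member of the Nr2f group, differed by 0.06 (SE 0.13, adjusted p = 0.752) in neurons and by -0.59 (SE 0.08, adjusted p = 2.42e-07) in progenitors. Nr2e1, the tailless receptor of neural progenitors, was higher in positive neurons by 0.53 and differed by -0.76 in progenitors, and both passed. Sp3 was higher by 0.47 and 0.48 in the respective classes and passed in both, while Sp1, Sp2 and Prox2 passed in neither. Of the overlapping antisense genes, 3 were tested in this contrast and had the sign of their partners, with A830082K12Rik at -0.89, B130024G19Rik at -1.25 and Prox1os at 1.09 in neurons, while Gm28172 and Gm32335 did not pass the filter on low counts. Between null and WT neurons Prox1os was at -0.35 (adjusted p = 0.378) beside 0.43 for Prox1, and neither passed.

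The genotype comparison asks whether loss of St18 changed the level of these genes. In neurons Nr2f1, Nr2f2, Prox1 and Sp8 were higher in both null libraries than in both WT libraries, and Htr3a overlapped. The fitted differences were 0.30 for Nr2f1 (log2, SE 0.11, adjusted p = 0.229), 0.54 for Nr2f2 (SE 0.21, adjusted p = 0.243), 0.43 for Prox1 (SE 0.15, adjusted p = 0.198), 0.55 for Sp8 (SE 0.18, adjusted p = 0.190) and 0.18 for Htr3a (SE 0.24, adjusted p = 0.728). By edgeR 0 of 5 passed, where 0.0808% of 13620 genes did. At an unadjusted p under 0.05 there were 4 of 5, where 17.5% of all genes were under it. DESeq2 called 0 of 5, where it called 6.63% of 4748 genes with an adjusted p, and gave no adjusted p for Sp8 and Htr3a. Of all genes tested, 42.9% were also higher in both null libraries, so the order of the libraries is common to much of the transcriptome.

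In progenitors the differences were 0.35 for Nr2f1 (SE 0.12, adjusted p = 0.220), 0.53 for Nr2f2 (SE 0.11, adjusted p = 0.0937), 0.21 for Prox1 (SE 0.14, adjusted p = 0.469), 0.29 for Sp8 (SE 0.30, adjusted p = 0.623) and 0.06 for Htr3a (SE 0.42, adjusted p = 0.952). By edgeR 0 of 5 passed, where 0.0295% of 13562 genes did. At an unadjusted p under 0.05 there were 2 of 5, again where 17.5% of all genes were. DESeq2 called Nr2f2 (adjusted p = 0.0141), where it called 6.06% of 5481 genes with an adjusted p, and again gave none for Sp8 and Htr3a. The null values of all but Htr3a were above the WT values, as they were for 48.3% of all genes.

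In neurons the 2 null libraries stood further apart over all genes (chi-square of 25.3 per degree of freedom) than the 2 WT libraries (3.71). Neurons of null replicate 2 were also the deepest, with a median of 8237 UMIs against 5500 to 5917 in the other libraries. Leaving out 1 library leaves its genotype with a single library, so that the spread comes from the other pair alone and the lone library is assumed to vary like that pair. Without null replicate 1, the library in which St18 was low, edgeR made calls for Nr2f1 (0.35, adjusted p = 0.0128) and Prox1 (0.64, adjusted p = 0.00243) in neurons, where 19.7% of all genes were called, 2695 against 11. Without WT replicate 2 there was a call for Nr2f2 in neurons (0.99, adjusted p = 0.0113), where 0.442% of genes were called and the WT library left was the one with less Nr2f2. The same differences also fell: Nr2f2 in neurons was 0.19 (adjusted p = 0.848) without WT replicate 1, and without null replicate 2 Prox1 was 0.22 (adjusted p = 0.245) in neurons and 0.04 (adjusted p = 0.848) in progenitors. In progenitors Nr2f1, Nr2f2 and Prox1 were called without null replicate 1, where 32.0% of all genes were, and Nr2f1 and Nr2f2 without null replicate 2, where 13.6% were. Scaling by library totals called Nr2f2 (0.69, adjusted p = 0.0462) and Prox1 (0.59, adjusted p = 0.0433) in neurons, where 3.09% of genes were called, but it moved the median of all genes by 0.15 as well.

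Cell makeup also differed between the genotypes. The MGE cortical interneuron-like clusters 1 and 3 took 26.8% and 37.1% of the neurons in the null libraries and 16.3% and 10.7% in the WT libraries. Cluster 1 carried this, with 13.4%, 27.3%, 5.35% and 3.77%, while cluster 3 overlapped between the genotypes. Cluster 2, which was among the clusters with the most Sp8, went the other way with 8.84%, 1.66%, 21.01% and 17.8%. The LGE neuron-like clusters took 11.2%, 11.1%, 10.8% and 8.52%. With equal cell numbers of each cluster in every library, the neuron differences were 0.17 for Nr2f1, 0.49 for Nr2f2, 0.43 for Prox1, 0.24 for Sp8 and 0.23 for Htr3a, with adjusted p of 0.509, 0.167, 0.234, 0.658 and 0.721. Without progenitor cluster 13, which carried markers of another region and was 3.14%, 3.96%, 2.34% and 0.886% of the progenitors, the Nr2f1 difference in progenitors was 0.19 (SE 0.12, adjusted p = 0.432). In sums of this kind, more cells of a type and more RNA per cell cannot be told apart.

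Of the further CGE-associated genes, 11 were tested in neurons for genotype, and 0 passed, where 0.0808% of all genes did, with a median of -0.30 against -0.01 for all genes. Adarb2, the most abundant, differed by -0.30 (SE 0.17, adjusted p = 0.380). Among 15 MGE-associated genes Sst, the somatostatin gene, was lower in null neurons and the others did not pass. No LGE-associated, pallial, or Dlx and GABA gene passed in neurons, and no gene of any of these lists in progenitors, where by edgeR the background was 0.0295%. The 6 pallial genes tested in neurons had a median of 1.14, with Neurod6 at 4.42 (SE 1.51, adjusted p = 0.196) and Eomes at 2.91 (SE 0.85, adjusted p = 0.1598). Pallial cells were uneven between libraries: the pallial neuron-like cluster 19 was 0.511%, 1.33%, 0.163% and 0.807% of neurons, and its part in the Nr2f2 values of neurons was not tested apart from the fit that leaves out clusters with pallial, LGE or CGE markers, in which Nr2f2 differed by 0.67 (SE 0.23, adjusted p = 0.165).

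Finally, the split and the genotype were combined for neurons. The positive versus negative difference of Nr2f1 was less negative in null than in WT by 0.34 (log2, SE 0.07, adjusted p = 0.128), and that of Nr2f2 by 0.48 (SE 0.11, adjusted p = 0.182). For Prox1 the term was -0.06 (SE 0.14), for Sp8 0.73 (SE 0.45) and for Htr3a 0.16 (SE 0.43), with adjusted p of 0.953, 0.779 and 0.964. By edgeR 0 of 5 passed, where 0.0467% of 12852 genes did and 7.31% had an unadjusted p under 0.05. Nr2f1 and Nr2f2 were under that unadjusted limit. Both terms were called without null replicate 1, at 0.49 (adjusted p = 2.50e-05) and 0.67 (adjusted p = 9.49e-06), where 0.685% of genes were called. The null arm of that fit is 1 library and its spread comes from the WT pair alone. Both were also called with no filter on low counts (adjusted p = 0.000666 for both, 0.511% of genes called), and that of Nr2f1 without the unnamed clusters in which markers of another class led (0.35, adjusted p = 0.0282, 0.291% of genes called), a setting added after the data were seen. As ratios of mean CPM, null over WT was 1.23 in negative and 1.59 in positive neurons for Nr2f1, 1.34 and 1.93 for Nr2f2 and 1.49 and 1.48 for Prox1. In progenitors, where the interaction was not fitted, the receptors had the larger ratio in negative cells, with 1.65 and 1.36 for Nr2f1 and 1.76 and 1.63 for Nr2f2. These ratios rest on library totals. With that scaling the median of all genes was itself higher in null, by 0.148 (log2) in all neurons and 0.187 in all progenitors.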

How the data were processed

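Single-cell libraries of the MGE at E14.5, 2 null and 2 WT, were grouped by genotype as in the labels, which carry no replicate numbers. The authors deposited raw UMI counts per gene and droplet from Cell Ranger. The file headers name version 4 and the processing notes version 5.0.1 with GRCm38. The libraries held 70991150 to 92984713 UMIs, and 99.6% of gene identifiers matched GENCODE M21. The 5 genes and all gene lists were chosen with earlier results of these data known.

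Kept droplets had 3000 UMIs or more, 200 genes or more and a mitochondrial share of up to 10%. Scrublet (scanpy 1.11.5, 30 components) called 0 to 4 doublets a library and had not worked at that setting, so the cells with the highest scores, 0.8% per 1000 cells and 120 to 352 a library, were left out. Doublets are therefore removed by rank and not by a call. Cells were clustered in Seurat 5.3.0 (R 4.3.3) with 2000 variable genes less the 5, 49 components and resolution 1.4, after regressing the difference of S and G2M scores. A neuron cluster was named only where at least 3 markers of a list were in 25% of its cells at a log2 fold of 1. Progenitor clusters were not named. Names rebuilt in this way may differ from the study's. Neuron clusters 7, 13 and 16 and progenitor clusters 11 and 16 had markers of another class ahead among their 10 leading genes.

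UMI sums of each class in each library were tested with edgeR 4.0.16 (quasi-likelihood, TMM, filterByExpr, two-sided, Benjamini-Hochberg over all genes, threshold 0.05), with the library as a block for contrasts within libraries. DESeq2 1.42.0 was an alternative. The fits were tested on simulated counts. Intervals are 95% and, like the limit of 3 counts for a value of 0, cover counting error only. Genes named were the 5, their relatives and overlapping non-coding genes, label checks, and the 4 most abundant genes of each list. Other genes named were chosen after their values were seen.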

Additional observations from a re-analysis of the deposited data

How the results depend on the processing

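No paired analysis was possible because the labels carry no replicate numbers that could pair null with WT libraries. Contrasts within libraries had the library as a block. The genotype comparison depended on the processing, while the differences of Nr2f1, Nr2f2 and Prox1 between Lhx6 or Nkx2-1 positive and negative cells kept their direction under every alternative tried. Among the single-gene values, 322 alternatives kept direction and side of the threshold, 18 gained a call, 9 lost one, 20 changed sign and 4 gave no adjusted p. The fits without unnamed clusters and with cells matched by cluster were chosen after seeing the data. The cause was not tested. Sp8 and Htr3a had the fewest UMIs of the 5 genes, and the part of depth in their values was not tested.

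Between null and WT neurons 11 genes passed, against 421 with library totals (2 of the 5 genes), 315 with DESeq2, 3 with no filter, 28 with doublets kept, 97 without clusters with pallial, LGE or CGE markers, 5 with equal cells of each cluster, 92 without unnamed clusters led by another class, and 63 to 2695 without 1 library (0 to 2 of the 5). In progenitors 4 passed, against 42 with library totals, 332 with DESeq2 (1 of the 5), 920 with no filter (1 of the 5), 86 with doublets kept, 108 with equal cells, 7 without unnamed clusters, and 26 to 4401 without 1 library (0 to 3 of the 5).

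For positive versus negative neurons 4129 genes passed, against 2115 with DESeq2, 1337 without the library block and 73 with cells matched by cluster (2 of the 5). In progenitors it was 5804 against 3702, 2290 and 117 under the same settings, each with 3 of the 5. For the interaction 6 passed, against 2 with library totals, 0 with DESeq2, 108 with no filter (2 of the 5), 2 at 5000 UMIs, 40 with the split on all UMIs, 3 for at least 2 UMIs against none, 37 without unnamed clusters (1 of the 5), and 2 to 90 without 1 library (0 to 2 of the 5).

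The log2 differences that changed sign were small or sparse. Htr3a between null and WT ran from -0.155 to 0.47 in neurons and -0.71 to 0.52 in progenitors without 1 library. It was below 0 in both classes without null replicate 1 (-0.155 and -0.71) and without WT replicate 1 (-0.0067 and -0.24), and in progenitors also with equal cells (-0.064) and without unnamed clusters (-0.0076). Sp8 in progenitors ran from -0.051, without null replicate 1, to 0.54 when 1 library was left out. With cells matched by cluster, Sp8 and Htr3a in neurons were -0.49 and -0.41 for positive versus negative, and in progenitors neither had enough counts to be fitted. Nr2f1 in neurons versus progenitors was -0.014 with DESeq2, -0.038 with doublets kept and -0.0048 without unnamed clusters, and ran from -0.021 to 0.024 without 1 library, below 0 without null replicate 2 and without WT replicate 2. In the interaction, with 1 library left out, Prox1 ran from -0.18 to 0.14, above 0 without null replicate 1 and without WT replicate 1, and was 0.043 with the split on all UMIs. Sp8 ran from -0.37, without WT replicate 2, to 1.803 with 1 library left out. Htr3a ran from -0.84, without WT replicate 2, to 0.80 likewise, and was -0.024 with the split on all UMIs.

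Without thinning, the mean shares of neurons and progenitors with a UMI were 35.6% and 45.7% for Nr2f1, 17.8% and 25.1% for Nr2f2, 24.3% and 38.1% for Prox1, 4.39% and 1.99% for Sp8, and 3.51% and 1.99% for Htr3a. At resolution 0.8 the level in the highest cluster of each gene moved by less than 1 SD, but the highest cluster was not always the counterpart of the one named: for Nr2f2 in neurons it had 325 CPM and 542 cells, in place of 649 CPM and 209 cells, and was also the highest for Htr3a, and for Sp8 in neurons it had 1147 cells in place of 209.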
